A study of Homo sapiens with 6 samples.

Results

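The cytosolic RNA sensors RIG-I, encoded by DDX58, and MDA5, encoded by IFIH1, were 2 of the 1099 genes in the deposited table. They were chosen by name, with their counts and levels in TPM (transcripts, corrected for length, as a share of the whole library) in the vehicle and SSD libraries already known, so that their levels and fold changes are given here as a description, with no test. The table covers bulk mRNA of wild-type AGS cells, a gastric adenocarcinoma cell line. One group of 3 libraries was vehicle-treated, and the other group of 3 libraries received SSD (saikosaponin-D, a triterpenoid saponin of Radix Bupleuri) at 10 µM, both for 24 h. Nothing in the labels says that the 3 libraries of a group came from separate cultures, so p-values measure only the spread between these libraries, which may be technical. The protocol fields of the same labels name another line, C4-2B, and a compound called L14-8, and the methods of the study give a lower concentration. The column names of the table carry AGS, and the groups follow the sample labels.

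RIG-I and MDA5 are RNA helicases of the cytosol that recognise viral RNA. RIG-I binds double-stranded ends that carry a 5′ triphosphate, and MDA5 assembles into filaments along long double-stranded RNA. Both then expose caspase recruitment domains, engage the adaptor MAVS on mitochondria and switch on the kinases TBK1 and IKKε and the transcription factors IRF3 and NF-κB, which drive type I and type III interferon. Both genes are themselves induced by interferon, in epithelial cells as in many other cell types.

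In the GENCODE release 29 annotation of GRCh38, DDX58 (ENSG00000107201) lies on the minus strand at chr9:32455705-32526324 and has 2 coding transcripts, of 17 and 18 exons. IFIH1 (ENSG00000115267) lies on the minus strand at chr2:162267079-162318703 and has 7 transcripts, 4 of them coding. No annotated gene overlaps either one. The nearest neighbour of DDX58 is ACO1, 935 bases away, and that of IFIH1 is GCA, which starts 136 bases away on the opposite strand. Neither neighbour is in the table.

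The promoters of both genes are shown because the 2 genes moved together and because interferon acts through short elements near the start site. Each window runs from 250 bases before to 50 bases after the RefSeq start site (GRCh38.p14, read on the gene's strand), with chr9:32526147-32526446 for DDX58 (RIGI in RefSeq) and chr2:162318635-162318934 for IFIH1. Capitals mark matches, on either strand, to 2 GAAA units separated by 1 or by 2 bases of any kind. Only the form with 2 bases between the units is the core of interferon-stimulated response elements.
DDX58: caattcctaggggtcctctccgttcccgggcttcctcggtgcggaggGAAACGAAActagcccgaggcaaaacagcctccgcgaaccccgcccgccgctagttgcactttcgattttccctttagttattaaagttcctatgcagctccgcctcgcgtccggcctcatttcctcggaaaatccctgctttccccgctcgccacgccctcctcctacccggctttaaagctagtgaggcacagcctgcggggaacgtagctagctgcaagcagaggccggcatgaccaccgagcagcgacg
IFIH1: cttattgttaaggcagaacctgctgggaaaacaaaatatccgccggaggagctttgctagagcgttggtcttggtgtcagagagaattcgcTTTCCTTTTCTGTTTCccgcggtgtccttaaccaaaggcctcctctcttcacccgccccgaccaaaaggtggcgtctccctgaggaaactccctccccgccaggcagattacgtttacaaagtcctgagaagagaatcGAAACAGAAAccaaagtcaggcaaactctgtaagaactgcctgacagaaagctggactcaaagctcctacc

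The DDX58 window held 1 match, with GAAA units 1 base apart, from -203 to -195 relative to the start site, and none with units 2 bases apart. The 5′ end of DDX58 in GENCODE lies 128 bases before the RefSeq start used here, against 19 for IFIH1. A window set on that end could hold other matches, which was not checked. The IFIH1 window held 3 matches with units 2 bases apart. Of these, 2 lay on the opposite strand and overlapped each other, from -159 to -150 and from -153 to -144, and the third lay from -21 to -12. The neighbour GCA starts at chr2:162318840, inside this window, and the 2 overlapping matches lie at that start. Of all 35116 RefSeq promoter windows of this length, in which a gene with several start sites counts more than once, 3.12% held units 1 base apart and 3.57% held units 2 bases apart. In the 1171 windows of genes in the table these shares were 4.44% and 4.78%. The interferon-gamma element TTCNNNGAA and the E-box CACGTG, a sequence that Myc binds, were in neither window, and were in 7.66% and 7.26% of all windows and in 5.38% and 11.2% of the windows of genes in the table. A match is only a run of letters, and binding was not measured.

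The table is a selection made on the same contrast as the one described here. The log2 fold changes nearest to 0 in it were -0.03 and 0.21, and it holds 712 genes below 0 and 387 above 0, out of 11289 that the authors tested. Over the 6 libraries the table's counts summed to 3084337 to 4640114. The genes of the table took 32.3% to 33.1% of all TPM in the vehicle libraries and 30.1% to 31.1% in the SSD libraries. Counts were put on a scale that reflects each whole library, from the ratio of count to TPM. With this scale the gap between -0.03 and 0.21 is not centred on 0. Fold changes here may thus lie higher than in the authors' selection, which was not tested. On that scale, the quasi-likelihood test of edgeR, adjusted by Benjamini-Hochberg over the 11289 genes, called 33.8% of the table higher and 19.5% lower under SSD, 53.2% in all, at an adjusted p under 0.05. With TMM scaling 385 genes were called higher and 87 lower, against 371 and 214 on the whole-library scale. These 371 were among the 387 genes above 0, and the 214 among the 712 below 0. A higher call thus adds little to the sign of a gene already in the table. A gene of the table without a call is not shown to be unchanged, since the table was selected on this contrast. Among the cell type markers, 2 of 11 gastric epithelial genes were in the table and both fell, TFF1 by 0.75 and CDH17 by 0.35 on the log2 scale (adjusted p = 0.0142 and 0.00703, edgeR). The call of TFF1 was lost with limma and without vehicle library 1 or vehicle library 2. None of 7 prostate luminal and none of 7 immune markers was in it, and of 5 stromal markers only COL1A1 was (log2 fold change -0.25, adjusted p = 0.146). Since genes that changed little are not in the table, the missing markers say nothing about the identity of the cells. In bulk RNA, a change in how many cells express a gene and a change in RNA per cell cannot be told apart.

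With vehicle, DDX58 stood at 22.4, 22.9 and 22.3 TPM, and with SSD it stood at 28.9, 31.4 and 34.4 TPM. Every SSD library was above every vehicle library, and the vehicle libraries lay closer together than the SSD libraries did. Mean levels were 22.5 ± 0.295 TPM with vehicle, against 31.6 ± 2.75 TPM with SSD (SD, n = 3 each), a 1.40-fold difference. On scaled counts the log2 fold change was 0.49 (standard error 0.0622). The unscaled counts did overlap, at 1157, 1556 and 1265 under vehicle and 1438, 1575 and 1584 under SSD, because the second vehicle library was the deepest of the 6.

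For IFIH1, vehicle replicates 1 to 3 gave 24.6, 22.4 and 21.3 TPM, and SSD replicates 1 to 3 gave 31.5, 30.1 and 35.02 TPM. Again the groups did not overlap. Its mean was 22.8 ± 1.65 TPM with vehicle, against 32.2 ± 2.54 TPM with SSD (SD, n = 3 each), a 1.41-fold difference on the TPM scale. On scaled counts the difference was 1.47-fold, a log2 fold change of 0.56 (standard error 0.0631). Its unscaled counts were 744, 958 and 786 under vehicle and 983, 1010 and 1034 under SSD, without overlap. Across the table, 32.2% of genes had every SSD library above every vehicle library in TPM and 44.2% had every SSD library below. The separation of the 2 sensors was thus common in the table, and they were picked with it in view.

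**Figure D1:**
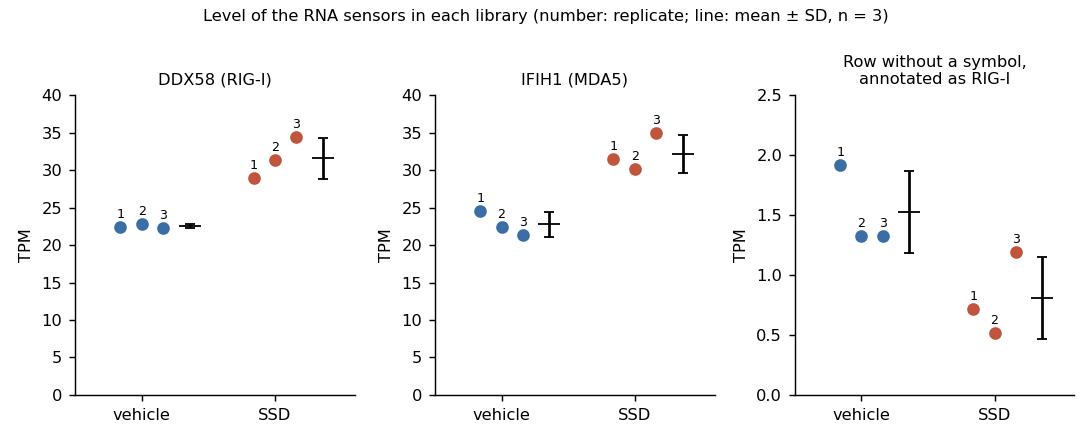
Level of DDX58, IFIH1 and the unnamed row annotated as RIG-I in TPM, 1 point for each library with its replicate number, and the mean ± SD (n = 3) as a line. DDX58 and IFIH1 sit near 22 to 25 TPM in all vehicle libraries and near 29 to 35 TPM in all SSD libraries, whereas the unnamed row is lower in all SSD libraries on a scale more than 10 times smaller.

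Ranked by log2 fold change among the 1099 genes, IFIH1 was 51st and DDX58 75th from the top. By level they were in the lower part of the table, at ranks 814 (IFIH1) and 820 (DDX58) under vehicle and 711 and 717 under SSD. The table is a selection, so these ranks do not give their place among all expressed genes. The spread of scaled counts over the vehicle libraries was 1.13% for DDX58 and 2.76% for IFIH1 (coefficient of variation), where counting error alone gives 2.75% and 3.47%. In the SSD libraries it was 7.72% and 5.95%, against 2.55% and 3.15% from counting. The SSD libraries thus differed from each other by more than counting error for both genes, with SSD library 3 highest for each of them.

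The balance of the sensors, given as the ratio of IFIH1 to DDX58 in TPM, was 1.10, 0.978 and 0.956 in the vehicle libraries and 1.09, 0.959 and 1.02 in the SSD libraries. The 2 groups overlapped. The mean ratio was 1.01 ± 0.0755 under vehicle and 1.02 ± 0.0642 under SSD (SD, n = 3 each). On the log2 scale it differed by 0.0168, less than the pooled SD of 0.0986. Without 1 library this difference ran from -0.0294 (without SSD library 1) to 0.0773 (without vehicle library 1), so that its sign depended on the libraries used.

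The counts also carry a hint of which transcripts were read, since the ratio of a gene's count to its TPM follows the transcript length assumed in that library. For DDX58 this relative length stayed between 98.9% and 100.9% of its own mean in the 6 libraries. For IFIH1 it ran from 93.4% to 102.1% under vehicle and from 99.9% to 106.0% under SSD, and the groups overlapped. The SD over the 6 libraries was 0.875% for DDX58 and 4.16% for IFIH1, against a median of 2.4% over the 956 genes with at least 10 TPM in every library. The fold of IFIH1 in scaled counts exceeds its fold in TPM by the ratio of these mean lengths, 102.0% ± 3.5 under SSD to 98.0% ± 4.36 under vehicle (SD, n = 3 each).

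A second row of the table, ENSG00000288684, has no gene symbol, but the annotation deposited beside it matches it to the RIG-I protein and gives it the same 6 Pfam domain families as DDX58. It is not in GENCODE release 29, so no position is given. With vehicle its level was 1.92, 1.33 and 1.33 TPM, and with SSD it was 0.72, 0.52 and 1.19 TPM. Every SSD library was lower, the opposite of DDX58. The log2 fold change was -0.89 (standard error 0.276) and did not pass the test (adjusted p = 0.123, edgeR). In all 6 libraries the estimated counts of DDX58 and of this row were not whole numbers, as when reads are divided between features, whereas those of IFIH1 were whole in all 6. How the reads were split is therefore uncertain. The unnamed row took 8.28%, 5.77% and 6.01% of the reads of both rows in the vehicle libraries and 2.54%, 1.73% and 3.56% in the SSD libraries. The sum of both rows, in scaled counts, was 1286 ± 27.3 under vehicle and 1729 ± 144 under SSD (SD, n = 3 each). With the rows summed, the log2 fold change was 0.43 instead of 0.49.

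The wider RIG-I-like receptor pathway was represented by a list of 58 co-factors, adaptors, kinases, transcription factors and inhibitors, of which 4 were in the table. This share, and those of the lists below, stand beside 1099 of the 11289 genes that the authors tested. The other 54, MAVS, TBK1, IRF3 and the third family member DHX58 (LGP2) among them, were not in the table and not analysed here. They were either not selected or not tested by the authors, and which of these holds is not known. Of the 4 genes 3 rose and none fell at an adjusted p under 0.05, where 33.8% of the table was called higher and 19.5% lower, with a median log2 fold change of 0.34, against -0.14 over the table. At an unadjusted p under 0.05, 3 were higher and 1 lower in edgeR, beside 387 higher and 596 lower of all 1099 genes. DESeq2 called 1 lower at an adjusted p under 0.05 where limma called 0. Over the table they called 290 lower with DESeq2 and 75 with limma at a pseudocount of 1.

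ZC3HAV1, the zinc-finger antiviral protein ZAP, whose short form assists RIG-I, gave 20.5, 18.1 and 17.9 TPM with vehicle, then 22.6, 26.1 and 28.8 TPM with SSD. Its log2 fold change was 0.45 (adjusted p = 0.0132). DDX60, a helicase described as a co-factor of RIG-I, gave 31.4, 26.3 and 26.6 TPM with vehicle, then 32.7, 36.9 and 44.4 TPM with SSD, and had a log2 fold change of 0.43 (adjusted p = 0.0301). In both, the lowest SSD library was only slightly above the highest vehicle library.

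ADAR edits adenosines in double-stranded RNA and so keeps cellular RNA from being sensed by MDA5. Its level was 172, 172 and 182 TPM with vehicle, then 194, 201 and 216 TPM with SSD, with a log2 fold change of 0.24 (adjusted p = 0.0125). PSMA7, a proteasome subunit reported to lower MAVS, had a log2 fold change of -0.18 (adjusted p = 0.103). The calls of ZC3HAV1, DDX60 and ADAR were lost with limma on log2 TPM and without vehicle library 2 or SSD library 2, and those of ZC3HAV1 and DDX60 also without vehicle library 3, while their log2 fold changes stayed above 0.20 in every setting run.

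The KEGG annotation of the table places 2 further genes in the RIG-I-like receptor pathway. CXCL8, the chemokine interleukin-8 and an NF-κB target, fell from 38.6 ± 0.451 to 21.8 ± 5.73 TPM (SD, n = 3 each), with a log2 fold change of -0.84 (adjusted p = 0.00675). NFKBIB, an inhibitor of NF-κB, had a log2 fold change of -0.23 (adjusted p = 0.151).

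**Figure D2:**
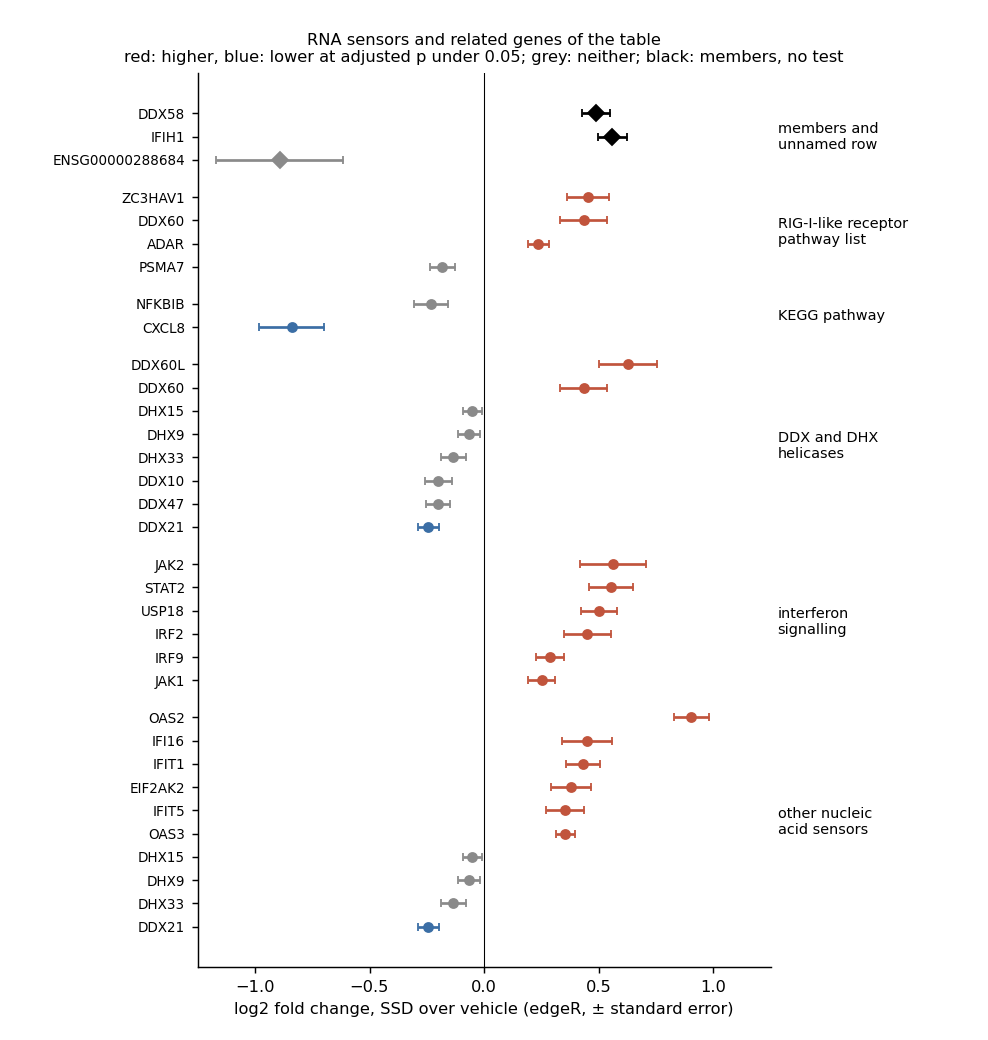
Log2 fold change of SSD over vehicle with its standard error (edgeR) for the sensors, the unnamed RIG-I row and named genes of 5 groups, with red for higher, blue for lower and grey for no call at an adjusted p under 0.05. The sensors, at 0.49 and 0.56, lie within the range of the red interferon signalling genes, 0.25 to 0.56, and CXCL8, at -0.84, is the lowest of the blue genes drawn here.

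No interferon ligand or receptor was among the 7 of 28 interferon and interferon signalling genes in the table. All 7 that were present rose, against 33.8% of the table, itself selected on this contrast, with a median log2 fold change of 0.45. For genes already in the table such calls add little to the sign. STAT2 and IRF9, transcription factors that act on interferon-stimulated response elements, had log2 fold changes of 0.55 and 0.29 (adjusted p = 0.0081 and 0.0161). The kinases JAK2 and JAK1 had values of 0.56 and 0.25 (adjusted p = 0.0482 and 0.031). IRF2 and USP18, a brake on the interferon receptor, had values of 0.45 and 0.50 (adjusted p = 0.0265 and 0.00532). Without vehicle library 2, vehicle library 3 or SSD library 2, 3 of the 7 were called, and limma called 4. Among 40 interferon-induced effector genes 20 were in the table and all 20 rose, again beside 33.8% of the table, with a median log2 fold change of 0.44, near the values of DDX58 and IFIH1. This fell to 11, 13 and 13 called without vehicle library 2, vehicle library 3 and SSD library 2, and to 10 with limma. In the same settings the higher calls of the whole table fell from 371 to 169, 229 and 186, and to 114 with limma at a pseudocount of 1.

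Of 26 other sensors of nucleic acids, 10 were in the table. Those that rose were 6, beside 33.8% of the table, and OAS2, OAS3, IFIT1 and IFIT5 among them are also in the effector list. The largest log2 fold change of the 6 was that of OAS2, which makes the 2-5A messenger on binding double-stranded RNA. OAS2 went from 10.7 ± 1.01 to 20.3 ± 0.779 TPM (SD, n = 3 each), with a log2 fold change of 0.90 (adjusted p = 0.000323). The others were OAS3 at 0.35, IFIT1, which binds RNA that lacks cap methylation, at 0.43, IFIT5 at 0.35, the double-stranded RNA-activated kinase EIF2AK2 (PKR) at 0.38 and the DNA sensor IFI16 at 0.45 (adjusted p between 0.00183 and 0.0368). DDX21 fell by 0.24 (adjusted p = 0.0104). DHX9, DHX15 and DHX33 were below 0 on the whole-library scale and were not called, which does not show that they were unchanged. The call of 6 became 3 without vehicle library 2, vehicle library 3 or SSD library 2, and 2 with limma, where IFIT1, IFIT5, EIF2AK2 and IFI16 were not called. Higher calls over the whole table were 169, 229 and 186 without these libraries, and 114 with limma at a pseudocount of 1, against 371. DDX21 was not called with DESeq2 size factors, nor without vehicle library 3 or SSD library 2.

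DDX58 shares its helicase core with a large family of RNA helicases. Besides DDX58, 8 DDX and DHX helicases were in the table, of which DHX9, DHX15, DHX33 and DDX21 are also among the other sensors and DDX60 is in the pathway list. Of the 8, 2 were called higher and 1 lower, against 33.8% and 19.5% of the table, with a median log2 fold change of -0.10. DDX60L, the paralogue of DDX60, rose by 0.63 (adjusted p = 0.0142) and DDX60 by 0.43, and reads of such paralogues can be exchanged. DDX21, a nucleolar helicase, was the member that fell. DDX47 and DDX10, both of ribosome assembly, had values of -0.20 each (adjusted p = 0.0505 and 0.0936). DHX33 stood at -0.14, DHX9 at -0.07 and DHX15 at -0.05, and the sign of DHX9 turned with TMM and with DESeq2 size factors, that of DHX15 also with total counts. Neither helicase that rose was called without vehicle library 2, vehicle library 3 or SSD library 2. Fits without these libraries called 169, 229 and 186 genes of the table higher, against 371.

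Of the 6 Pfam families that DDX58 and IFIH1 share, CARD_2, RIG-I_C and RIG-I_C-RD were found in 3 rows of the table, the 2 sensors and the unnamed row. The caspase recruitment domain CARD_2 passes the signal to MAVS, and RIG-I_C-RD is the C-terminal domain that binds RNA. DEAD, Helicase_C and ResIII, the helicase motifs, were found in 11, 13 and 11 rows.

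DDX58 carried 41 gene ontology terms and IFIH1 29, and 24 were shared. The counts of other genes with these terms stand beside 33.8% called higher and 19.5% called lower over the whole table. Among the other 23 genes annotated to defense response to virus 20 rose and 1 fell, with a median log2 fold change of 0.41. Innate immune response held 27 other genes, 20 higher and 2 lower, with a median of 0.36. Response to virus held 16, 10 higher and 3 lower, and double-stranded RNA binding 11, 6 higher and 1 lower. For viral process, 8 of 25 were higher and 4 lower, with a median of -0.13. For protein deubiquitination, 2 of 18 were higher and 3 lower, and for cytosol 124 of 424 were higher and 86 lower, with medians of -0.13 and -0.13. Many genes are in several of these groups, and the first ones include the interferon-induced genes already counted. The unnamed RIG-I row is one of the genes in the defense, innate immune and response to virus groups.

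**Figure D3:**
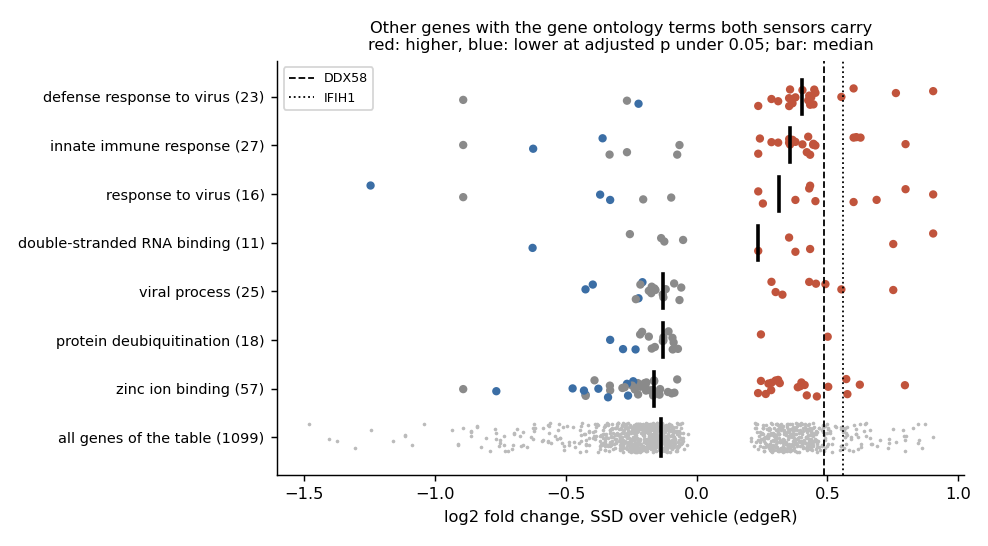
Log2 fold change of SSD over vehicle (edgeR) for the other genes of the table that carry gene ontology terms of both sensors, for terms with 10 to 60 such genes, beside all 1099 genes, with a bar at each median. The medians run from 0.41 for defense response to virus to -0.16 for zinc ion binding, and the dashed and dotted lines mark DDX58 and IFIH1.

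Genes most like each sensor were found from the root mean square difference of log2(TPM + 1), centred on the vehicle mean, over the 6 libraries. For DDX58 these were CREG1 (0.0315), SH3BP5 (0.0417), PARP14 (0.0509), ERMP1 (0.0524) and SORL1 (0.0543), where the median gene of the table differed by 0.429. For IFIH1 they were PCDHB13 (0.035), a member of a family of near-identical genes whose reads are uncertain, LRRCC1 (0.0396), ERMP1 (0.0495), TMX4 (0.0538) and FUCA1 (0.0609), against a median of 0.442. PCDHB13, LRRCC1 and SH3BP5 had only 3.07, 4.86 and 5.28 TPM under vehicle, levels at which the added 1 shrinks a change. In edgeR their log2 fold changes were 0.64, 0.51 and 0.48 (standard error 0.108, 0.108 and 0.102). ERMP1 was on both lists. The sensors differed from each other by 0.0783, so that IFIH1 was 33rd in the order for DDX58 and DDX58 was 14th in the order for IFIH1.

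Processing moved the size of these changes and not their direction. With every SSD library above every vehicle library for both genes, leaving out 1 library could not turn the direction. The log2 fold change of DDX58 ran from 0.43 to 0.58 over 16 alternatives and that of IFIH1 from 0.48 to 0.65 over 15. Leaving out SSD library 3, the highest for both, gave 0.43 for DDX58 and 0.51 for IFIH1.

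**Figure D4:**
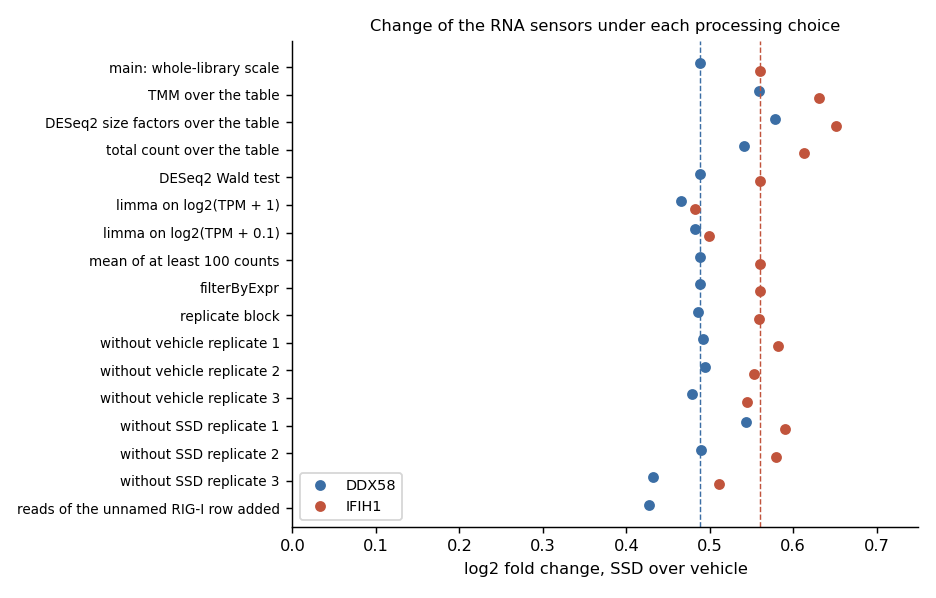
Log2 fold change of SSD over vehicle for DDX58 and IFIH1 under each processing choice, with dashed lines at the values reported above. All points lie between 0.43 and 0.65.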

How the data were processed

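mRNA of 6 AGS libraries, 3 vehicle and 3 SSD, was sequenced by the authors with a SMARTER mRNA-seq kit. They deposited 1 table of 1099 genes with estimated counts and TPM per library, gene lengths and annotation. The deposited estimated counts are not normalised (33.5% of values are not whole numbers), and the TPM deposited by the authors are corrected for gene length and for the size of each library. The deposited p-values and fold changes of the authors' own comparison were not used, except to read that 11289 genes had been tested. The build in the submitters' processing notes is GRCh38.p13, and the aligner and counter are not given in the sources used here. The smallest mean count in the table is 59.

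Counts were rounded and tested with edgeR 4.0.16 (glmQLFit, glmQLFTest, R 4.3.3) on a library scale set by the median ratio of count to TPM over 1096 genes with at least 1 TPM in every library, from 0.874 to 1.287. Adjusted p used Benjamini-Hochberg over 11289 genes. Genes that are not in the table entered this adjustment as if their p were larger. Between libraries of a group the median squared difference was 1.49 to 5.57 times the counting variance over 956 genes, so none was a copy. An exact permutation test of 3 against 3 libraries cannot go below 0.1 and was not run. Alternatives used TMM, DESeq2 1.42.0, limma 3.58.1 (log2 TPM, with a pseudocount of 1 or of 0.1), a mean of at least 100 counts, filterByExpr, a replicate block and leaving out each library. The fit was tested on simulated data. The members and lists were chosen with earlier results of these data known. One interferon signalling gene is counted in its list but not reported here by name. Named were both sensors, all pathway genes of the table, at most 8 genes of smallest p in each other list, the 5 genes most like each sensor, and the genes that KEGG places in the pathway. The unnamed RIG-I row, COL1A1 and the helicases DHX9, DHX15, DHX33, DDX10 and DDX47 were described after their values were seen where this rule did not name them.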

Additional observations from a re-analysis of the deposited data

How the results depend on the processing

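The direction of both sensors held in every setting run, which adds little for genes picked with separated groups in view. DDX58 gave 0.58 with DESeq2 size factors, and IFIH1 0.63 with TMM, 0.65 with DESeq2 size factors and 0.48 with limma on log2(TPM + 1), beyond 1 SD of the main values. The table holds selected genes, so scales drawn from it shift all fold changes (TMM by 0.072, upward). Both sensors gave larger values on each of these scales than on the whole-library scale. Genes called higher (371) became 114 and 115 with limma at pseudocounts of 1 and 0.1, and 169 to 382 without 1 library. Genes called lower (214) became 87 with TMM, 86 with DESeq2 size factors, 126 with total counts, 75 and 73 with limma, 580 when adjusted over the 1099 genes alone, and 77 to 287 without 1 library. In the pathway list the 3 higher calls became 0 and 0 with limma and 0 to 3 without 1 library, and the 0 lower calls became 1 with the DESeq2 Wald test, 1 when adjusted over the table alone and 0 to 1 without 1 library. Other sensors (6) gave 2 and 2 with limma and 3 to 6 without 1 library, interferon signalling (7) gave 4 and 4 and 3 to 7, and effectors (20) gave 10 and 10 and 11 to 20. Helicases called higher (2) gave 1 and 1 with limma and 0 to 2 without 1 library, and those called lower (1) gave 0 with DESeq2 size factors, 2 with the DESeq2 Wald test, 4 when adjusted over the table alone and 0 to 1 without 1 library. The cause of these changes was not tested, beyond fewer libraries in the fits that leave one out and fewer genes in the adjustment over the table alone.

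Same-numbered libraries showed no shared deviation from their group means, with correlations of -0.23, -0.00974 and -0.0321. This cannot show whether they were prepared together, which the labels do not say. With the replicate block, 194 genes were called higher and 94 lower, 0 of the pathway list higher, 3 other sensors, 3 interferon signalling genes, 11 effectors and 0 helicases higher, and the log2 fold changes were 0.49 for DDX58 and 0.56 for IFIH1. The unnamed row had 27.8 to 104 estimated reads per library, for which counting error alone gives a coefficient of variation of 10.3% under vehicle and 15.6% under SSD.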
